A study of Oryza sativa with 26 samples.

Results

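The levels of 5 rice dehydrin genes, RAB21, RAB16B, RAB16C, RAB16D and rDRP1, were followed through the development of the lamina joint. The genes were chosen by name, as probe sets whose symbol or synonym matched these names, and where a gene had more than 1 probe set the one brightest on average was used. All 5 genes listed were measured, by 6 probe sets, among the 17905 genes that the array's probe sets represent. The lamina joint is the hinge where a leaf blade meets its sheath, and it opens as the leaf bends away from the stem. All plants were of the japonica cultivar Zhonghua 11, grown in a greenhouse with no treatment named in the labels, and joints were cut by hand into liquid nitrogen. Plants were 60, 65, 70 and 80 days from sowing when the last joint was cut at its stages 2, 4, 5 and 6. The second joint, labelled as the last second, was taken at 55, 60, 65 and 75 days. The third joint, counted the same way, was taken at 50, 55, 60 and 70 days. The leaf control was green tissue of the third leaf at stage 4, 55 days after sowing. Per the labels, stage 2 joints were young, stage 4 joints mature with the leaf still upright, stage 5 joints opening, and stage 6 joints in senescence, dry and distorted. There are 26 arrays, 2 for each of 13 groups. They are called biological replicates, but nothing says that separate plants were used, so a p-value reflects the spread between these particular arrays and may be technical. A joint is a mixture of tissues from 1 cultivar, and fewer cells of a type cannot be told apart from less RNA per cell.

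Dehydrins are small, very hydrophilic proteins of the late embryogenesis abundant (LEA) class that stay soluble and flexible, bind membranes and other proteins, and accumulate in drying seeds and in tissues short of water. In rice many of them respond to abscisic acid: the hormone binds PYL receptors, these inhibit PP2C phosphatases, SAPK kinases are released, and bZIP factors such as ABF2 and TRAB1 switch on target genes through abscisic acid response elements. RAB21 is the rice dehydrin classically used as a reporter of this response, and RAB16B, RAB16C and RAB16D are its close paralogs. In the RefSeq gene table of assembly ASM3414082v1 RAB16D (LOC4350451) and RAB16C (LOC4350452) are neighbours, and so are RAB16B (LOC4350453) and RAB21 (LOC4350454). Between RAB16C and RAB16B that table lists 2 genes, a lncRNA and a pseudogene. The fifth gene, rDRP1 (LOC4326935), carries the synonym rab25, is also annotated as a dehydrin, and lies elsewhere in the genome. Because the RAB16 genes are related, signal of one gene on the probe set of another cannot be told apart here from that gene's own.

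Values are the authors' RMA levels on a log2 scale, in which 1 unit is a 2-fold difference, and they were compared only within a probe set. Array medians lay between 5.08 and 5.17, and the number of arrays limits the precision. Upper quartiles lay between 7.90 and 8.08 except in replicate 1 of the second joint at stage 5, at 7.50. The Gapdh control's 3′ probe set exceeded its 5′ probe set by 3.78 in replicate 2 of the third joint at stage 4 and by 1.95 in replicate 1. This difference was 1.47 in both arrays of the third joint at stage 2, 2.93 to 3.41 in the last joint at stage 5 and at stage 6 in every joint, and 1.78 to 2.09 on the other arrays. The 2 arrays that stand apart are named beside the results they touch.

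RAB21 was highest in the second and last joints at stage 2 and the third joint at stage 4, and lowest in the leaf. In the last joint it measured 10.80 and 12.11 at stage 2, 10.31 and 9.49 at stage 4, 9.53 and 8.56 at stage 5, and 10.24 and 8.28 at stage 6. In the second joint it measured 13.36 and 10.79, then 11.03 and 9.86, then 8.33 and 7.62, then 9.53 and 9.30 at the same stages. In the third joint it measured 8.46 and 9.44, then 11.81 and 12.16, then 8.95 and 7.31, then 9.06 and 6.61. The third joint thus peaked at stage 4, while the means of the last and second joints were highest at stage 2. The leaf measured 6.35 and 6.30, and 24 of 24 joint arrays lay above both leaf arrays. Its pooled SD within groups was 0.99, and in the order of the 13 group means 11 of 12 neighbours overlapped in their arrays, the exception being the lowest joint group above the leaf. The other RAB21 probe set was dimmer, with a mean of 7.75 against 9.45.

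RAB16B was high mainly in young joints of the last and second leaf. Arrays of the last joint gave 9.65 and 10.83 at stage 2, 5.63 and 6.59 at stage 4, 4.34 and 4.59 at stage 5, and 4.64 and 5.20 at stage 6. Those of the second joint gave 12.43 and 7.50, then 6.01 and 5.04, then 5.19 and 4.47, then 5.74 and 4.00. In the third joint it measured 4.84 and 4.90, then 9.22 and 4.67, then 4.11 and 4.03, then 5.01 and 3.99, and in the leaf 4.10 and 3.69. The 4 young arrays of the last and second joint ran from 7.50 to 12.43. Replicate 1 of the third joint at stage 4 lay within that range, and every other array lay below it. The replicates of the young second joint lay 4.93 apart, the widest gap of this gene, and its pooled SD of 1.43 was the largest of the 5 genes. Of 24 joint arrays, 21 lay above both leaf arrays. The median of this gene over the 26 arrays, 4.95, and both leaf values lay below the array medians of 5.08 to 5.17. The size of a ratio to such low levels is uncertain.

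RAB16C was also highest in young last and second joints, with a smaller spread, and was not low in the leaf. Its levels in the last joint were 8.40 and 9.27 at stage 2, 6.58 and 6.81 at stage 4, 5.98 and 5.56 at stage 5, and 5.72 and 6.16 at stage 6. Its levels in the second joint were 10.64 and 8.46, then 6.65 and 6.21, then 7.37 and 6.18, then 6.25 and 5.97. In the third joint it measured 6.99 and 7.22, then 7.17 and 6.09, then 5.65 and 5.95, then 5.85 and 5.85. The 4 young arrays of the last and second joint lay above every other array. The leaf, at 7.71 and 6.87, held the third highest group mean, and only 4 of 24 joint arrays lay above both leaf arrays. The pooled SD was 0.61, and 11 of 12 neighbours in the order of group means overlapped, the gap falling below the young last joint.

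RAB16D stayed between 4.81 and 6.42 on all 26 arrays, with a median of 5.18. That is close to the array medians, and 50.7% of probe sets had a lower mean. Its highest value, 6.42, came from replicate 1 of the second joint at stage 5, the array with the low upper quartile, whose replicate measured 4.99. Group means spanned 0.85, the smallest span of the 5 genes, and its pooled SD was 0.33. The lowest group was the third joint at stage 2, at 4.90 and 4.81.

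The rDRP1 gene had a moderate level in most joints and a low one in the third joint at stage 2 and the leaf. Its replicates lay up to 1.94 apart, in the second joint at stage 2. In the last joint it measured 8.49 and 8.58 at stage 2, 7.24 and 8.14 at stage 4, 7.91 and 7.53 at stage 5, and 7.92 and 7.82 at stage 6. In the second joint it measured 9.10 and 7.16, then 8.01 and 7.97, then 5.88 and 7.60, then 8.01 and 7.65. In the third joint it measured 5.30 and 5.02, then 8.39 and 6.99, then 7.37 and 7.36, then 6.62 and 7.03. The third joint at stage 2 was the lowest of the 13 groups and overlapped the leaf, at 6.04 and 5.00. Replicate 1 of the second joint at stage 5 was the only other joint array under the higher leaf array. The pooled SD was 0.65, and 10 of 12 neighbours in the order of group means overlapped.

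**Figure D1:**
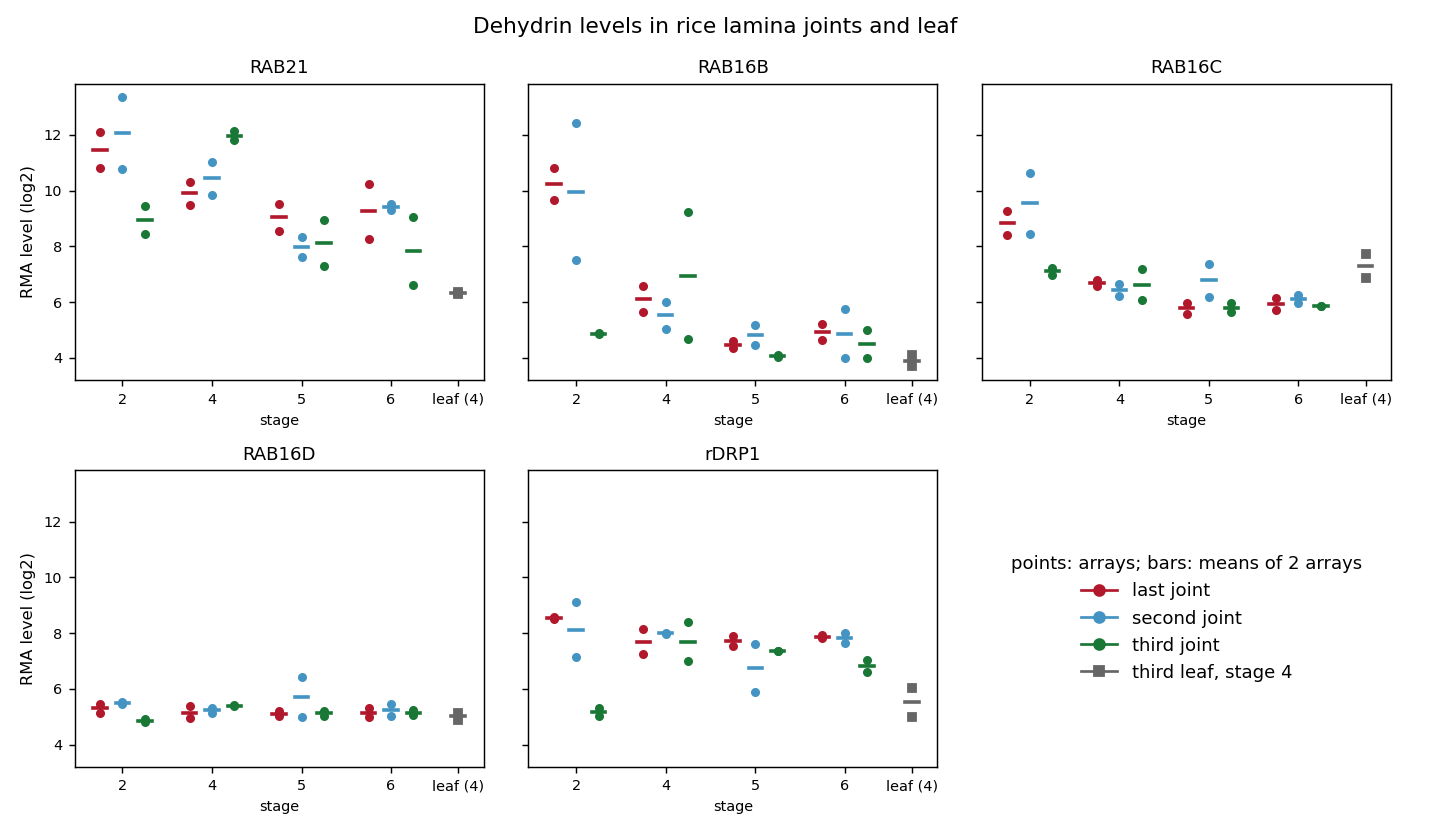
RMA level (log2) of each gene by stage, with points for arrays and bars for the means of 2 arrays; the last joint is red, the second blue, the third green and the leaf grey. RAB21 lies above the leaf in 24 of 24 joint arrays, RAB16B and RAB16C are highest in the young last and second joints, RAB16D stays between 4.81 and 6.42, and rDRP1 is lowest in the third joint at stage 2; heights are not comparable between panels.

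The third joint was compared with the third leaf at stage 4, the only stage and position with a leaf control. Of the 5 dehydrins, 2 were higher in the joint and 0 lower, where 7.41% of the 57258 probe sets tested passed in either direction and 3.42% were higher. A call required an adjusted p under 0.05 in limma, with Benjamini-Hochberg adjustment over all probe sets, and at least a 2-fold difference. RAB21 averaged 11.98 ± 0.25 in the joint and 6.33 ± 0.04 in the leaf (SD, n = 2 each), 50.4-fold higher (log2 5.66, SE 0.883, limma adjusted p = 0.000404). The other RAB21 probe set differed by 5.38 (limma adjusted p = 0.000365). Both joint arrays of RAB21 lay far above both leaf arrays, and the replicates of each tissue lay close together.

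The second dehydrin that passed was rDRP1, at 7.69 ± 0.99 in the joint and 5.52 ± 0.74 in the leaf (SD, n = 2 each), 4.49-fold higher (log2 2.17, SE 0.588, limma adjusted p = 0.0244). Both joint arrays lay above both leaf arrays. Without replicate 1 of the joint the difference of rDRP1 was 1.47 (limma adjusted p = 0.277), and without replicate 2 of the leaf 1.65 (limma adjusted p = 0.228). RAB16B, with 9.22 and 4.67 in the joint against 4.10 and 3.69 in the leaf, differed by 3.05 (SE 1.27, limma adjusted p = 0.17). Without replicate 2 of the joint, the array with the high Gapdh difference, it differed by 5.33 (limma adjusted p = 0.0135). RAB16C differed by -0.66 (limma adjusted p = 0.592) and RAB16D by 0.39 (limma adjusted p = 0.559), with 95% intervals of -1.82 to 0.50 and -0.25 to 1.04. The median difference of the 5 genes was 2.17 and that of all probe sets -0.003.

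Of the related genes, set against the 7.41% of probe sets called, those that passed were as follows. The list of 4 other dehydrin and LEA genes also holds the lectin-like gene salT. Of these 4 genes 1 was higher in the joint, the dehydrin Dhn1 (log2 1.53, limma adjusted p = 0.000347). Of 18 receptors, phosphatases and kinases of abscisic acid signalling, 2 were higher, the kinase SAPK7 (1.5) and the phosphatase PP2C06 (1.44), and 1 was lower, the kinase SAPK3 (-1.53). Among 16 transcription factors of abscisic acid and dehydration 0 passed in limma, with 3 at an unadjusted p under 0.05. Of 13 compatible solute genes, 2 were higher, both trehalose phosphate phosphatases: TPP9 by 3.23 and TPP2 (LOC4349333) by 1.99. Another gene of the list that carries the name TPP2, LOC4330237, differed by -0.29 and did not pass. Of 3 genes of abscisic acid synthesis and breakdown 0 passed limma, with 1 at an unadjusted p under 0.05. The tissues also differed in their markers: 4 of 7 green leaf markers were lower in the joint, whose summed levels were 13.93 and 14.12 against 15.72 and 15.73 in the leaf. Of 7 meristem markers HOS66 (4.83) and OSH71 (3.33) were higher in the joint. The summed meristem levels were lower there, at 13.46 and 13.49 against 13.89 and 14.23 in the leaf. The epidermis marker LTPL1 (1.1) and, of 11 panicle markers, MADS2 (LOC4325001, 1.38) were also higher in the joint. The joint marker LG1, a ligule regulator, was higher by 3.01, and the part of these tissue differences in the dehydrin results was not tested.

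Maturation was examined as stage 4 against stage 2, averaged over the last, second and the third joint. RAB16B and RAB16C fell, while RAB21, RAB16D and rDRP1 did not pass, so 2 of 5 genes were called, against 11.5% of all probe sets in either direction and 5.8% lower. RAB16C averaged 6.58 at stage 4 and 8.50 at stage 2, 3.77-fold lower (log2 -1.91, SE 0.317, limma adjusted p = 0.000146). Leaving out any 1 array gave values from -2.28 to -1.55 and kept the call. RAB16B averaged 6.19 at stage 4 and 8.36 at stage 2, 4.49-fold lower (log2 -2.17, SE 0.736, limma adjusted p = 0.0343). The RAB16B call was lost in 7 of 26 fits that left out 1 array. The difference was -1.34 without replicate 1 of the young second joint and -1.41 without replicate 2 of the third joint at stage 4. It stayed between -2.18 and -1.97 without either array of the third joint at stage 2, replicate 2 of the young last joint, replicate 1 of the mature last joint or replicate 2 of the mature second joint. RAB21 differed by -0.05 (limma adjusted p = 0.963), RAB16D by 0.04 (limma adjusted p = 0.904) and rDRP1 by 0.52 (limma adjusted p = 0.308). The 5 genes had a median of -0.05, and all probe sets a median of 0. Tissue markers also moved in this step: the epidermis marker LTPL1 fell (-1.27), and of 7 meristem markers OSH71 (1.51) and HOS59 (1.17) rose and HOS66 fell (-1.86). Of 7 green leaf markers 2 rose and 3 fell, of 11 panicle markers MADS1 rose (1.08), and of 3 chlorophyll breakdown genes NYC1 rose (1.15). Their part in the dehydrin results was not tested.

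**Figure D2:**
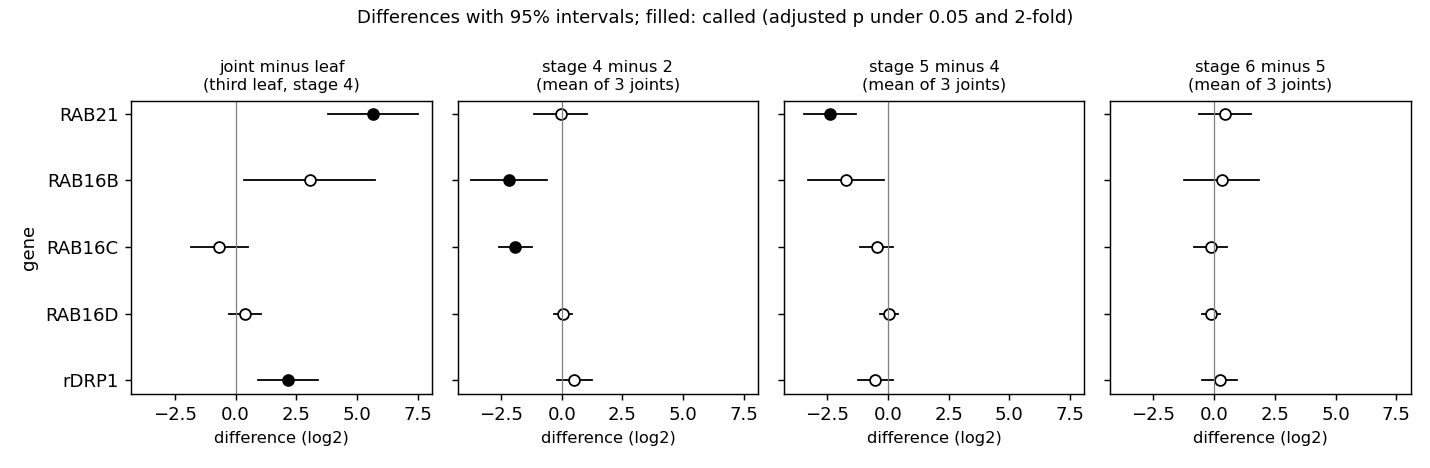
Log2 differences of the 5 genes with 95% intervals for the joint minus the leaf at stage 4 and for the 3 stage steps averaged over the joints; filled points passed an adjusted p of 0.05 and a 2-fold difference. RAB21 (5.66) and rDRP1 (2.17) were higher in the joint than in the leaf, RAB16B (-2.17) and RAB16C (-1.91) fell at stage 4, RAB21 (-2.39) fell at stage 5, and 0 of 5 genes passed at stage 6.

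Within single joints the step of RAB16C was downward in all 3, while those of the other 4 genes were downward in the last and second joint and upward in the third. The F-test of whether steps differed between joints passed for 0 of 5 genes in limma. In the last joint RAB16B was 17.5-fold lower at stage 4 than at stage 2 (log2 -4.13, SE 1.27, limma adjusted p = 0.041) and RAB16C 4.41-fold lower (log2 -2.14, SE 0.549, limma adjusted p = 0.0143). In the second joint RAB16B was 21.7-fold lower (log2 -4.44, SE 1.27, limma adjusted p = 0.0239) and RAB16C 8.68-fold lower (log2 -3.12, SE 0.549, limma adjusted p = 0.00069). Each of these counts, 2 of 5 genes, stands against 9.08% of probe sets called in the last joint, 4.96% lower, and 10.9% in the second joint, 5.47% lower. In the last joint the 2 mature arrays lay below the 2 young arrays for both genes, and the same held in the second joint. The call of RAB16B in the last joint was lost in 12 of 26 fits that left out 1 array, over a range of -4.72 to -3.54. These left out any of the 8 last joint arrays, either mature second joint array or either array of the third joint at stage 5. In the second joint its difference was -1.98 (limma adjusted p = 0.4) without replicate 1 of the young joint. LTPL1 fell in the same step of the last (-1.5) and second (-1.47) joint, where its levels were 11.26 to 11.78 at stage 4 and 12.64 to 13.33 at stage 2, and its part in the result was not tested. RAB16C in the last joint lost its call without replicate 2 of the young joint (-1.70) or replicate 1 of the mature joint (-2.03).

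In the third joint other genes passed, and they rose. A call in some joints but not in others does not show a difference between joints. RAB21 was 8.19-fold higher at stage 4 than at stage 2 (log2 3.03, SE 0.883, limma adjusted p = 0.0194), and rDRP1 5.77-fold higher (log2 2.53, SE 0.588, limma adjusted p = 0.00447), 2 of 5 genes against 14.5% of probe sets in either direction and 7.11% higher. Both mature arrays lay above both young arrays for each gene. RAB16B, whose mature replicates were 9.22 and 4.67, differed by 2.07 (limma adjusted p = 0.296), RAB16D by 0.55 (limma adjusted p = 0.243) and RAB16C by -0.48 (limma adjusted p = 0.621). Without replicate 2 of the third joint at stage 4 RAB16B differed by 4.35 (limma adjusted p = 0.0275), and RAB21 by 2.86 (limma adjusted p = 0.104). RAB21 also missed the threshold without replicate 1 of the young joint (2.55, limma adjusted p = 0.121) or replicate 1 of the mature joint (3.21, limma adjusted p = 0.0556), and rDRP1 without replicate 1 of the mature joint (1.83, limma adjusted p = 0.0725).

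Other genes of the abscisic acid response rose in the same step of the third joint. In this step 14.5% of probe sets were called in either direction and 7.11% were higher. Of 16 transcription factors of abscisic acid and dehydration 8 rose and 0 fell, with a median of 1.82 against -0.029 for all probe sets. The largest rises were those of the homeodomain factors HOX24 (5.64, limma adjusted p = 0.0132) and Hox22 (5.58, limma adjusted p = 0.00137). Of 18 receptors, phosphatases and kinases 6 rose and 1 fell, with a median of 0.78; the phosphatases PP2C68 (4.79, limma adjusted p = 0.000848) and PP2C30 (3.95, limma adjusted p = 0.000207) rose most and the kinase SAPK10 fell (-1.59, limma adjusted p = 0.00388). Of 4 genes of the other dehydrin and LEA list, salT included, only Dhn1 passed (1.51, limma adjusted p = 0.000151). Of 3 genes of abscisic acid synthesis and breakdown 1 rose, ABA8OX1, which encodes a hydroxylase that inactivates the hormone (2.83, limma adjusted p = 0.0185). ABA8OX1 also rose in the last (3.22) and second (3.61) joint, where RAB16B and RAB16C fell. So did DREB1A (2.79 and 3.91) and PYL11 (1.41 and 1.24), both counted above, whereas HOX24, Hox22, PP2C68 and PP2C30 passed in neither. Of 13 compatible solute genes 2 rose, TPP7 (2.57) and TPP1 (2.33), a share close to that of all probe sets called in either direction. In the same step the Gapdh difference was 1.95 and 3.78 at stage 4 and 1.47 on both arrays at stage 2, and 2 of 3 chlorophyll breakdown genes rose; their summed levels were 11.96 and 12.58 at stage 4, against 10.91 and 11.36 at stage 2. Of 7 meristem markers OSH71 (2.25) and HOS59 (1.79) rose, with summed levels of 13.46 and 13.49 at stage 4 and 12.36 and 12.96 at stage 2. Of 7 green leaf markers rbcS (2.17) and PSAG (1.52) rose, with summed levels of 13.93 and 14.12 at stage 4 and 13.99 and 14.51 at stage 2. The part of any of these in the dehydrin results was not tested.

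In the last joint 1 of 16 transcription factors and 2 of 18 signalling genes rose and 0 fell in limma, where 9.08% of probe sets were called. In the second joint 5 of 16 transcription factors rose, and of 18 signalling genes 2 rose and 2 fell, where 10.9% of probe sets were called. Averaged over the joints, where 11.5% of probe sets were called, 6 of 16 transcription factors rose, led by the AP2 factors DREB1A (3.24) and DREB1G (2.95), and ABA8OX1 rose by 3.22 (limma adjusted p = 4.21e-05).

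**Figure D3:**
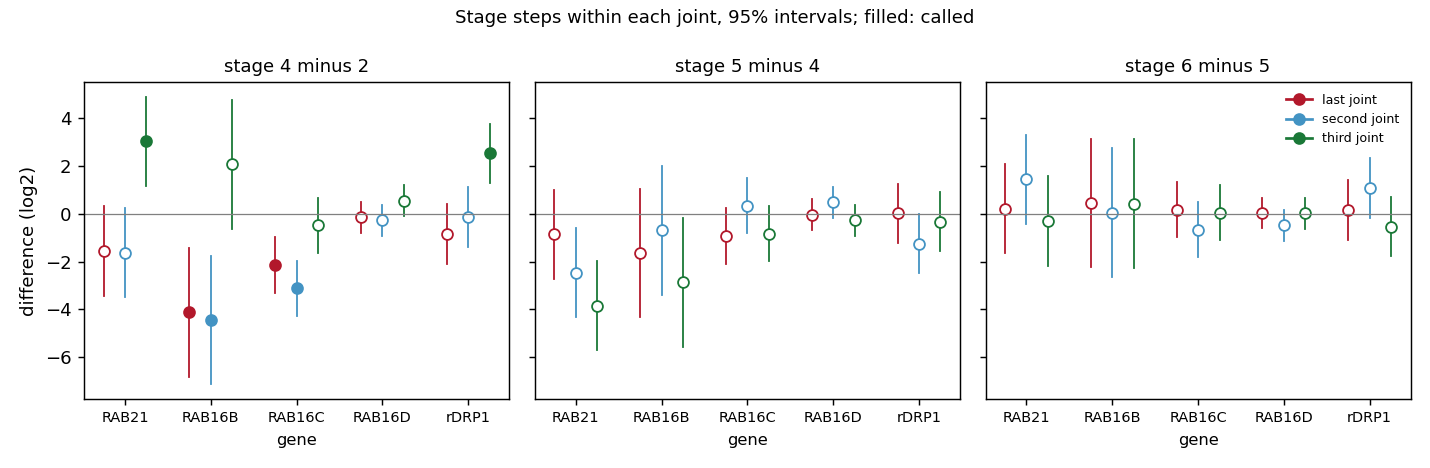
Log2 differences between successive stages within the last (red), second (blue) and the third (green) joint with 95% intervals; filled points passed an adjusted p of 0.05 and a 2-fold difference. At stage 4 RAB16B and RAB16C were lower in the last and second joints, whereas RAB21 (3.03) and rDRP1 (2.53) were higher in the third joint; none of the steps to stage 5 or 6 passed within a joint.

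Leaf opening was examined as stage 5 against stage 4. RAB21 fell, averaging 8.38 at stage 5 and 10.78 at stage 4 over the 3 joints, 5.25-fold lower (log2 -2.39, SE 0.51, limma adjusted p = 0.026). This 1 of 5 genes stands against 0.695% of probe sets in either direction and 0.341% lower. The 6 arrays at stage 5 ran from 7.31 to 9.53, with a median of 8.45, and the 6 at stage 4 from 9.49 to 12.16, with a median of 10.67, so the stages overlapped only at their edge. The other RAB21 probe set fell by 2.35 (limma adjusted p = 0.0195). The call was lost in 7 of 26 fits that left out 1 array: either mature last joint array, replicate 1 of the mature second joint, either array of the third joint at stage 4, or replicate 2 of the last or the third joint at stage 5. The difference ran from -2.67 to -2.12 over the 26 fits, and without both arrays that stand apart the difference was -2.45 (limma adjusted p = 0.0844).

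The remaining 4 genes did not pass this step. RAB16B differed by -1.74 (limma adjusted p = 0.434), RAB16C by -0.47 (limma adjusted p = 0.727), rDRP1 by -0.52 (limma adjusted p = 0.715) and RAB16D by 0.05 (limma adjusted p = 0.964). Within single joints 0 of 5 genes passed limma in the last, second or the third joint, where 0.791%, 1.29% and 0.754% of probe sets did, and 0, 2 and 2 genes had an unadjusted p under 0.05. The third joint came closest: RAB21 measured 8.95 and 7.31 at stage 5 against 11.81 and 12.16 at stage 4, a difference of -3.85 (limma adjusted p = 0.0508). With the replicate number as a block that RAB21 difference passed (limma adjusted p = 0.0209), and the other RAB21 probe set also passed, at -3.78 (limma adjusted p = 0.0432). Of the abscisic acid and dehydration lists 1 gene changed in the averaged step, the lectin-like gene salT, which fell (-1.01, limma adjusted p = 0.0319).

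Stage 6, which the labels describe as dehydrated, brought 0 dehydrin calls. Averaged over the joints against stage 5, 0 of 5 genes passed limma and 0 had an unadjusted p under 0.05, where 1.74% of probe sets were called. RAB21 differed by 0.45 (limma adjusted p = 0.727), RAB16B by 0.31 (limma adjusted p = 0.89), RAB16C by -0.15 (limma adjusted p = 0.874), RAB16D by -0.14 (limma adjusted p = 0.766) and rDRP1 by 0.23 (limma adjusted p = 0.803). Their 95% intervals were -0.63 to 1.53, -1.25 to 1.86, -0.82 to 0.52, -0.51 to 0.24 and -0.49 to 0.95, in that order. For RAB21 and RAB16B these intervals still hold a 2-fold rise, so a rise of that size is not excluded. Within the last, second and the third joint 0 of 5 genes passed limma either, and 0 had an unadjusted p under 0.05, against 0.14%, 3.93% and 1.03% of probe sets.

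The levels at stage 6 and at stage 2 can also be set side by side. RAB16C did not overlap: it ran from 5.72 to 6.25 with a median of 5.91 over the 6 arrays at stage 6, and from 6.99 to 10.64 with a median of 8.43 over the 6 arrays at stage 2. RAB16B ran from 3.99 to 5.74 at stage 6 and from 4.84 to 12.43 at stage 2, and these ranges overlapped through the third joint at stage 2. In the last and second joints alone RAB16B did not overlap, at 4.00 to 5.74 and 7.50 to 12.43, and neither did RAB21, at 8.28 to 10.24 and 10.79 to 13.36. Over all 3 joints RAB21 ran from 6.61 to 10.24 at stage 6 and from 8.46 to 13.36 at stage 2, and rDRP1 from 6.62 to 8.01 at stage 6 and from 5.02 to 9.10 at stage 2. In the last and second joints alone rDRP1 and RAB16D overlapped between these stages. The pair of stages 6 and 2 was not tested, and the share of all probe sets without overlap between them is not given. Of the abscisic acid and dehydration lists 2 genes passed at stage 6 against stage 5, the AP2 factor DREB1E, which fell (-1.70, limma adjusted p = 0.0331), and P5CS2, which encodes a proline synthesis enzyme and rose (1.47, limma adjusted p = 0.0211). The Gapdh difference was 3.0 to 3.41 on all stage 6 arrays, and of 11 panicle markers MADS1 rose (1.15) against stage 5. The part of either in the result was not tested.

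All dehydrin calls between joints of 1 stage came at stage 2. The change of a joint difference from stage 2 to 4 equals the difference in that step between the joints, tested below. For the last against the third joint RAB21 (-4.59, limma adjusted p = 0.0483) and rDRP1 (-3.37, limma adjusted p = 0.0304) passed. For the second against the third RAB21 passed (-4.66, limma adjusted p = 0.0488). These contrasts were chosen after seeing the data, and the F-test over all steps passed for 0 of 5 genes. At stage 2, 4 of 5 genes were higher in the second than in the third joint, against 4.68% of probe sets in either direction and 2.79% higher. In the last joint 2 of 5 were higher than in the third, against 5.9% of probe sets in either direction and 3.41% higher. These comparisons share the arrays of the third joint at stage 2 with each other and with its step to stage 4, so they are not independent. Positions of 1 stage also differ in plant age, at 60, 55 and 50 days after sowing for the last, second and the third joint at stage 2, and position and age cannot be told apart. The third joint at stage 2 was also the group with the smallest Gapdh difference, whose part in the result was not tested.

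In the young last joint rDRP1 was 10.4-fold higher than in the third joint at stage 2 (log2 3.38, SE 0.588, limma adjusted p = 0.00145), and RAB16B 41.2-fold higher (log2 5.37, SE 1.27, limma adjusted p = 0.0134). For rDRP1 and RAB16B both arrays of the last joint lay above both arrays of the third joint, and the share of all probe sets separated so is not given. RAB21 differed by 2.50 (limma adjusted p = 0.0935), RAB16C by 1.73 (limma adjusted p = 0.0607) and RAB16D by 0.44 (limma adjusted p = 0.465). RAB16B lost its call without replicate 2 of the young last joint (4.78, limma adjusted p = 0.118) or replicate 2 of the third joint at stage 2 (5.39, limma adjusted p = 0.0786). RAB16C passed when replicate 1 or replicate 2 of the young second joint, or either array of the second joint at stage 5, was left out, its difference remaining 1.73.

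In the young second joint RAB16B was 34.1-fold higher than in the third joint at stage 2 (log2 5.09, SE 1.27, limma adjusted p = 0.022) and RAB21 8.75-fold higher (log2 3.13, SE 0.883, limma adjusted p = 0.0432). There rDRP1 was 7.84-fold higher (log2 2.97, SE 0.588, limma adjusted p = 0.00437) and RAB16C 5.43-fold higher (log2 2.44, SE 0.549, limma adjusted p = 0.0109). RAB16D differed by 0.64 (limma adjusted p = 0.279). The third joint level of RAB16B lay below the array medians here too, so the size of that gene's fold is uncertain. The second joint's replicate 1 exceeded its replicate 2 in 4 of 5 genes, by up to 4.93. Without that replicate 1, 0 of 5 genes passed: the differences were 1.84 for RAB21 (limma adjusted p = 0.566), 2.63 for RAB16B (limma adjusted p = 0.452), 1.35 for RAB16C (limma adjusted p = 0.271) and 2.00 for rDRP1 (limma adjusted p = 0.131). The RAB21 call was lost in 13 of 26 fits that left out 1 array, among them those without replicate 1 (2.64) or replicate 2 (3.62) of the third joint at stage 2. RAB16B lost its call without either array of the third joint at stage 2, and RAB16C without replicate 1 of the third joint at stage 2 (2.32, limma adjusted p = 0.0684).

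Between the last and second joint at stage 2, 0 of 5 genes passed limma, with adjusted p from 0.841 to 0.994 and 0 genes at an unadjusted p under 0.05, where 0.526% of probe sets passed. The 95% interval of RAB21 ran from -2.49 to 1.24 and that of rDRP1 from -0.84 to 1.65. At stages 4, 5 and 6, 0 of 5 genes passed limma in any of the 3 pairs of joints. The share of probe sets called for the last against the second, the last against the third and the second against the third joint was 0.405%, 0.421% and 0.236% at stage 4, 0.756%, 0.961% and 0.423% at stage 5, and 0.0105%, 0.311% and 0.014% at stage 6. Only 1 value there had an unadjusted p under 0.05, RAB21 at stage 4, at 10.31 and 9.49 in the last joint against 11.81 and 12.16 in the third (-2.08, limma adjusted p = 0.437). Averaged over the 4 stages, only rDRP1 in the last against the third joint passed, at 7.95 against 6.76 (log2 1.20, SE 0.294, limma adjusted p = 0.0257), where 1.14% of probe sets did in either direction and 0.751% were higher. That call was lost in 10 of 26 fits that left out 1 array, over a range of 1.02 to 1.37, with the lowest value without replicate 2 of the third joint at stage 4. The last against the second joint and the second against the third gave 0 of 5 genes in limma, with 0 and 2 at an unadjusted p under 0.05, against 0.189% and 0.375% of probe sets.

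**Figure D4:**
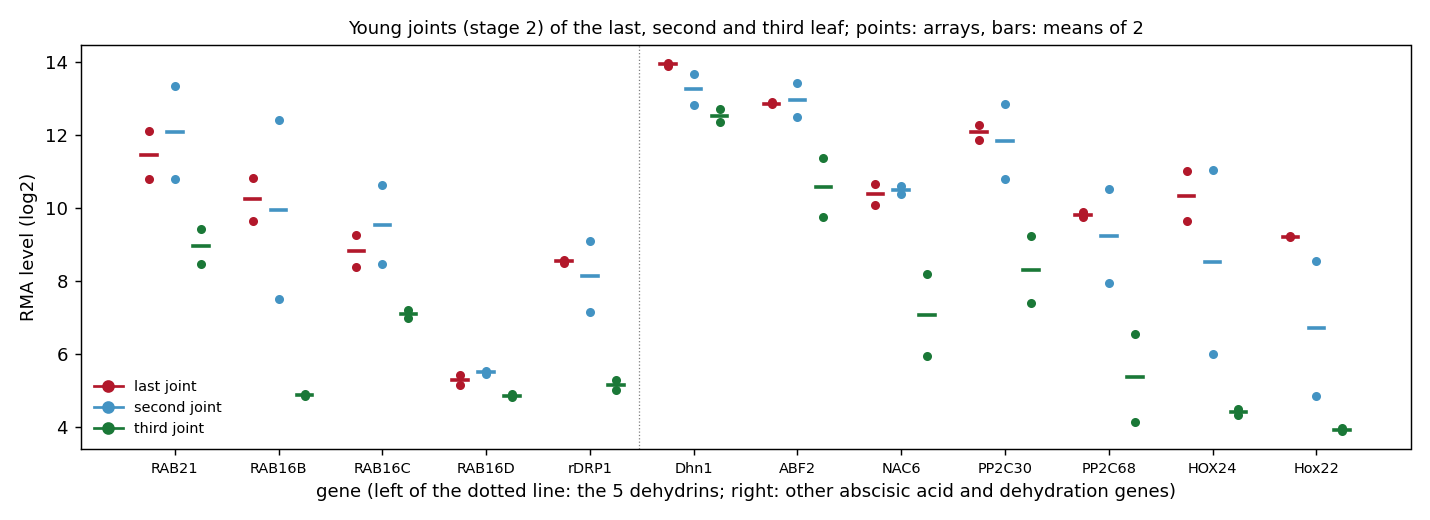
RMA level (log2) at stage 2 in the last (red), second (blue) and the third (green) joint for the 5 dehydrins and for 7 other genes of the abscisic acid and dehydration lists, with points for arrays and bars for the means of 2. The third joint was lower for rDRP1 at 5.30 and 5.02, against 8.49 and 8.58 in the last joint, and the 2 arrays of the second joint lie far apart for RAB16B, HOX24 and Hox22; heights are not comparable between genes.

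Other genes of the abscisic acid response were also higher in the young last joint than in the third joint at stage 2. In this comparison 5.9% of probe sets were called in either direction and 3.41% were higher. Of 16 transcription factors 5 were higher and 0 lower, with HOX24 (5.91, limma adjusted p = 0.0231) and Hox22 (5.29, limma adjusted p = 0.00614) furthest apart. HOX24 measured 9.66 and 11.02 in the last joint, 11.04 and 6.00 in the second and 4.34 and 4.50 in the third. Of 18 signalling genes 6 were higher and 1 lower: PP2C68 (4.46, limma adjusted p = 0.00464) and PP2C30 (3.77, limma adjusted p = 0.00112) differed most, and the kinase SAPK5 was lower (-1.52, limma adjusted p = 0.0216). Of 4 genes of the other dehydrin and LEA list 2 were higher, the dehydrin Dhn1 (1.42, limma adjusted p = 0.000982) and the lectin-like gene salT (1.71, limma adjusted p = 0.00964). Of 13 compatible solute genes 3 were higher, with TPP1 (2.02) and TPP2 (LOC4349333, 1.69) furthest apart, while the other TPP2 gene, LOC4330237, differed by -0.12. Of 3 genes of abscisic acid synthesis and breakdown 0 passed limma, with 1 at an unadjusted p under 0.05.

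In the young second joint against the third at that stage, 4.68% of probe sets were called in either direction and 2.79% were higher. There 4 of 16 transcription factors were higher, led by the NAC factors NAC6 (3.42, limma adjusted p = 0.000131) and NAC5 (3.02, limma adjusted p = 0.00798). Of 18 signalling genes 2 were higher, PP2C68 (3.88, limma adjusted p = 0.0139) and PP2C30 (3.52, limma adjusted p = 0.00208). Of 4 genes of the other dehydrin and LEA list, salT included, 0 passed limma, with 2 at an unadjusted p under 0.05 and a median of 1.07. The meristem marker OSH71 was higher than in the third joint by 1.25 in the last and 1.49 in the second joint, and in the last joint HOS59 (1.01) and the green leaf marker PSAG (1.74) were also higher. Summed levels of 7 meristem markers were 13.17 to 13.39 in the young last joint, 13.13 to 13.17 in the second and 12.36 to 12.96 in the third. Summed levels of 7 green leaf markers were 14.55 to 14.73, 13.98 to 14.33 and 13.99 to 14.51 in the same order. The chlorophyll breakdown gene SGR was higher than in the third joint by 2.22 in the last and 2.54 in the second joint. Summed levels of the 3 chlorophyll breakdown genes were 12.40 to 12.77 in the young last joint, 12.43 to 12.94 in the second and 10.91 to 11.36 in the third, and the part of all these markers in the dehydrin differences was not tested.

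Joints can also be set side by side by day rather than by stage, without a test. At 55 days after sowing RAB21 measured 13.36 and 10.79 in the young second joint, 11.81 and 12.16 in the third joint at stage 4, and 6.35 and 6.30 in the leaf. At 60 days it measured 10.80 and 12.11 in the young last joint, 11.03 and 9.86 in the mature second joint, and 8.95 and 7.31 in the third joint at stage 5. RAB16C at 60 days measured 8.40 and 9.27, then 6.65 and 6.21, then 5.65 and 5.95 in the same order. On that day both genes were lowest in the joint at the latest stage, without overlap. On other days this did not hold throughout: at 65 days RAB16C measured 6.58 and 6.81 in the last joint at stage 4 and 7.37 and 6.18 in the second at stage 5. At 70 days RAB21 measured 9.53 and 8.56 in the last joint at stage 5 and 9.06 and 6.61 in the third at stage 6, which overlap.

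Whether a dehydrin's steps differed between joints was tested with a limma F-test over 6 contrasts, in which 5.48% of probe sets passed and 0 of 5 genes did. The limma adjusted p was 0.0744 for rDRP1, 0.136 for RAB21, 0.19 for RAB16B, 0.265 for RAB16C and 0.684 for RAB16D. An unadjusted p under 0.05 held for 3 of the 5, and the share of all probe sets at that limit is not given. In single contrasts of the step from stage 2 to stage 4, chosen after seeing the data, 2 of 5 genes passed for the last minus the third joint, where 3.83% of probe sets did, and 1 of 5 for the second minus the third, where 3.34% did. These were RAB21 in both and rDRP1 in the first, all with a lower step than in the third joint. The F-test count rose in 3 of 26 fits that left out 1 array. These lacked replicate 2 of the young second joint, of the second joint at stage 5 or of the third joint at stage 4. Each left a group with 1 array, and the share of all probe sets passing in them is not given.

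The likeness of the profiles was described by Pearson's r over the 13 group means, which rest on the same 26 arrays, share array effects and have no independent replicates. Within the cluster of neighbouring genes, r was 0.83 between RAB21 and RAB16B, 0.85 between RAB16B and RAB16C, and 0.51 between RAB21 and RAB16C. RAB16D, which hardly left the array median, had r from 0.33 to 0.46 with the other genes. For rDRP1 r was 0.70 with RAB21, 0.57 with RAB16B and 0.14 with RAB16C. Without the leaf, over 12 joint groups, r between RAB16B and RAB16C was 0.93 and between RAB21 and RAB16C 0.69.

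Among 907 other named genes whose group means spanned at least 2 log2 units, those most like RAB21 were ABA8OX2 (r = 0.892), encoding an abscisic acid hydroxylase, TPP9 (0.88), a trehalose phosphate phosphatase, and PM1 (0.871), which carries the synonym OsPM19L1. ABA8OX2 had its highest mean, like RAB21, in the young second joint, at 11.10 and 10.03, and its lowest in the leaf, at 6.80 and 7.64. Those most like RAB16B were LOX1.1 (0.928), a lipoxygenase gene, the heavy-metal transporter gene HMA2 (0.909) and PMEI8 (0.9), a pectin methylesterase inhibitor gene. PMEI8 was also the gene most like RAB16C (0.932), followed by CRSH2 (0.918) and the expansin-like gene EXLA4 (0.911). EXLA4 averaged 9.14, 8.50 and 6.26 in the young last, second and the third joint and 3.74 to 4.62 in the other groups. Those most like rDRP1 were the calmodulin-like gene CML27 (0.922), TPP9 (0.899) and the glutaredoxin gene GRXS3 (0.885). GRXS3 averaged 5.91 in the third joint at stage 2, its lowest group, and 6.31 in the leaf. RAB16D had weaker matches, PP2C30 (0.682), ABF2 (0.677) and the phytoene synthase gene PSY3 (0.673). ABF2, the bZIP factor also called bZIP23, was lowest in the third joint at stage 2, at 11.38 and 9.76, as RAB16D was.

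**Figure D5:**
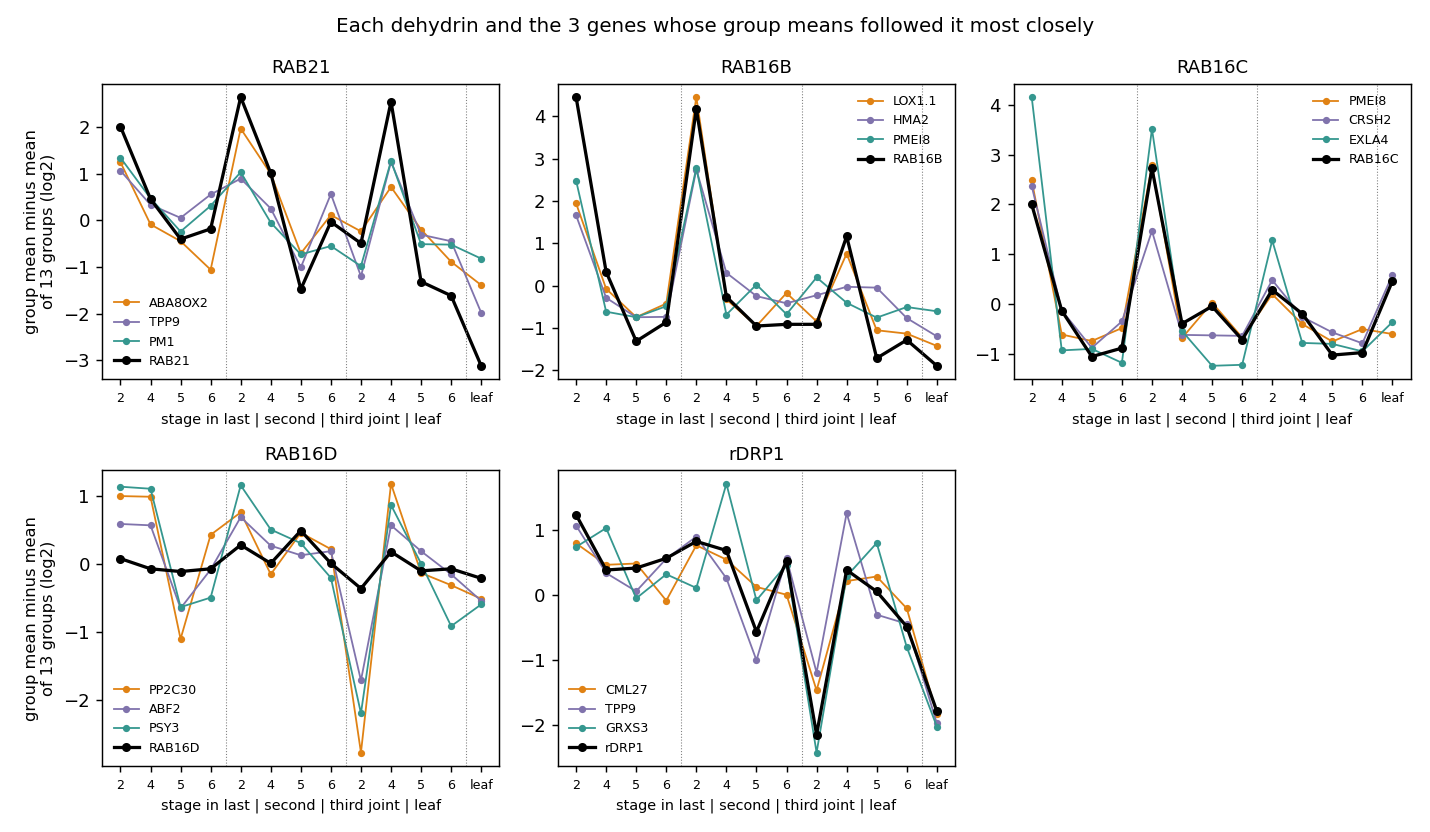
Group means minus the mean of the 13 groups (log2) for each dehydrin in black and the 3 genes with the highest Pearson r in colour, over stages 2, 4, 5 and 6 of the last, second and the third joint and the leaf. RAB16B, RAB16C and their matches share a peak at stage 2 in the last and second joints, rDRP1 and its matches share a low value in the third joint at stage 2 and in the leaf, and RAB16D spans 0.85 while its matches span more.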

How the data were processed

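Total RNA from 26 samples, amplified and labelled with a 3′ kit per the labels' protocols, was hybridised to rice GeneChip arrays. The authors deposited 1 table of log2 expression values made by RMA, per the submitters' processing notes, which subtracts background, quantile-normalises arrays and summarises probes. No version of RMA, background setting or chip definition is given in the labels. The table holds 57381 probe sets, of which 123 controls were left out. Of the 57258 tested, 22436 matched 1 gene through the platform annotation, 95 several and 34727 none, and symbols were updated through the RefSeq gene table.

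A limma (3.58.1, R 4.3.3) model with 13 group means and 13 residual degrees of freedom gave 28 contrasts, each two-sided with Benjamini-Hochberg adjustment over 57258 probe sets. A call is an adjusted p under 0.05 with at least a 2-fold difference. Counts at an unadjusted p under 0.05 are given without the share of all probe sets at that limit, so they show no excess. Averages weight the joints or stages equally, and intervals are 95%. Error is the pooled spread of pairs of arrays. Replicates had r from 0.971 to 0.995 and shared 0.0238% identical values, so none was counted as a duplicate.

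Each dehydrin was read from its probe set with the highest mean. All 5 dehydrins are named, the 3 genes most alike to each among 907 named genes, and, from each related list, called genes with the 2 largest differences in each direction. Other genes of those lists, and day-matched values, were chosen after their values were seen. The members and the lists were chosen with earlier results of these data known. Summed marker levels are log2 of summed linear values. The fit was tested on simulated data. Alternatives were a replicate block, further quantile normalisation, a filter on dim probe sets, the mean of a gene's probe sets, the compared arrays alone, an intensity trend with a robust prior, a 1.5-fold limit inside the test (treat), the Gapdh 3′ to 5′ difference as covariate, and leaving out arrays. Sequences were not used here.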

Additional observations from a re-analysis of the deposited data

Results flagged for a closer look

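The step from stage 2 to stage 4 passed a limma test of its difference between joints for 2 dehydrins, in single contrasts chosen after the pattern was seen. The F-test over all steps passed for 0 of 5 genes, with limma adjusted p of 0.136 for RAB21 and 0.0744 for rDRP1, and an unadjusted p under 0.05 for 3. The share of all probe sets at that unadjusted limit is not given. For RAB21 the step of the last joint minus that of the third joint was -4.59 on the log2 scale (SE 1.25, limma adjusted p = 0.0483), where 3.83% of probe sets passed. Its step in the second joint minus that in the third was -4.66 (limma adjusted p = 0.0488), where 3.34% passed. For rDRP1 the last joint minus the third gave -3.37 (SE 0.832, limma adjusted p = 0.0304). The values behind them are steps of -1.55, -1.63 and 3.03 for RAB21 and of -0.84, -0.14 and 2.53 for rDRP1 in the last, second and the third joint. Both contrasts use the third joint's 4 arrays, so they are not independent. The RAB21 calls were lost in 18 and 19 of 26 fits that left out 1 array, and the rDRP1 call in 5, those without either young last joint array, replicate 1 of the mature last joint, replicate 2 of the third joint at stage 2 or replicate 1 of the third joint at stage 4. RAB16B differed by -6.20 (limma adjusted p = 0.0648) and -6.51 (limma adjusted p = 0.0578) in the same contrasts.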

How the results depend on the processing

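With 2 arrays a group, many dehydrin calls hung on single arrays. A fit without 1 array leaves its group with 1, and the share of all probe sets passing the F-test in such fits is not given. Calls kept in all 26 fits that left out 1 array were RAB21 in joint against leaf (5.48 to 5.83), RAB16C at stage 4 against 2 averaged (-2.28 to -1.55) and in the second joint (-4.21 to -2.03), and rDRP1 in the last against the third joint at stage 2 (3.23 to 3.52). Over these fits the number of the 5 genes called ran from 1 to 3 for joint against leaf, 1 to 2 for the averaged stage 4 against 2, 0 to 1 for stage 5 against 4, and 0 to 2 each for the last and the second against the third joint. It ran from 0 to 2 for stage 4 against 2 in the last and the third joint, 1 to 2 in the second joint, 0 to 1 for stage 5 against 4 in the third joint, 1 to 3 and 0 to 4 for the last and the second against the third joint at stage 2, 0 to 3 and 0 to 4 for the step differences of the last and the second against the third joint, and 0 to 4 for the F-test. Values that changed sign over these fits ran from -0.48 to 0.38 for RAB21 and -0.03 to 0.11 for RAB16D at stage 4 against 2, -0.18 to 0.29 for RAB16D at stage 5 against 4, and, at stage 6 against 5, -0.35 to 0.05 for RAB16C, -0.38 to 0.10 for RAB16D and -0.05 to 0.52 for rDRP1. Between joints they ran from -0.39 to 0.26 for RAB21 and -0.48 to 0.75 for RAB16B in the last against the second, and -0.01 to 0.10 for RAB16D in the last against the third. Within joints at stage 4 against 2 they ran from -0.35 to 0.07 for RAB16D in the last, -1.11 to 0.83 for rDRP1 in the second, and -0.20 to 4.35 for RAB16B and -1.02 to 0.06 for RAB16C in the third, and at stage 5 against 4 from -1.03 to 0.38 for rDRP1 in the third. At stage 2, last against second joint, they ran from -1.91 to 0.66 for RAB21, -2.19 to 2.74 for RAB16B, -1.80 to 0.38 for RAB16C and -0.56 to 1.38 for rDRP1.

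Fitting only the arrays compared left 1 gene called for joint against leaf, 1 for stage 4 against 2, 1 for that step in the second joint, 0 for the second against the third joint at stage 2, and 1 and 0 for the step differences of the last and second against the third joint. With a 1.5-fold limit inside the test (treat) 1 gene was called for joint against leaf, stage 4 against 2, that step in the second and in the third joint, and the second against the third joint at stage 2; 0 were called for stage 5 against 4, the last against the third joint, stage 4 against 2 in the last joint and both step differences. With the Gapdh covariate 1 gene was called for stage 4 against 2 and 1 by the F-test (RAB16B, limma adjusted p = 0.0426). The share of all probe sets passing the F-test with that covariate is not given. Without both arrays that stand apart 1 was called for stage 4 against 2, 0 for stage 5 against 4 and 3 for the step difference of the second against the third joint. For stage 5 against 4 in the third joint 1 gene, RAB21, was called without dim probe sets, with the mean of a gene's probe sets and with its other probe set. For the step difference of the last against the third joint 1 was called after further quantile normalisation and 1 with the intensity trend, and for that of the second against the third 0 with the trend and 2 without dim probe sets. Signs turned for RAB21 at stage 4 against 2 with the mean of probe sets (0.05), the Gapdh covariate (0.05) and its other probe set (0.15), and for RAB21 in the last against the second joint with the Gapdh covariate (0.01) and without both arrays (0.03). They turned for RAB16C at stage 6 against 5 (0.31) and in the third joint at stage 4 against 2 (0.23) with the Gapdh covariate. Without both arrays those values were 0.05 and 0.06, and RAB16D gave -0.18 at stage 5 against 4 and 0.10 at stage 6 against 5, and rDRP1 -0.05 at stage 6 against 5. RAB16B in joint against leaf was called with the Gapdh covariate (5.51, limma adjusted p = 0.0144). The cause of these changes was not tested.

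Replicate numbers did not clearly mark pairs: 24 of 78 pairs of groups had a correlation of replicate differences over 0.1 (from -0.31 to 0.55, median 0.04). A replicate effect shared by some groups or genes is not excluded. With the replicate block 1 gene, RAB21, was called at stage 5 against 4 in the third joint (-3.85, limma adjusted p = 0.0209), 2 for the step difference of the second against the third joint, RAB16C in the last against the third joint at stage 2 (1.73, limma adjusted p = 0.049) and RAB16B in both step differences (-6.20 and -6.51).

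Over all probe sets, treat called 1786 against 4243 for joint against leaf, 43 against 398 at stage 5 against 4, 152 against 994 at stage 6 against 5, and 1, 30 and 4 against 108, 653 and 215 for the last against the second, the last against the third and the second against the third joint. At stage 4 against 2 it called 2374, 3253 and 5023 in the last, second and the third joint against 5201, 6221 and 8303, and 42 against 432 at stage 5 against 4 in the third joint. At stage 2 it called 10, 1227 and 1095 against 301, 3379 and 2677 for the same pairs of joints, and 651 and 580 against 2192 and 1915 for the step differences. The compared arrays alone gave 2118 for joint against leaf, 106 for the second against the third joint, 273 at stage 5 against 4 in the third joint, 0, 2136 and 555 at stage 2, and 819 and 752 for the step differences. The Gapdh covariate gave 357 at stage 6 against 5, 165 at stage 5 against 4 in the third joint, and 1001 and 711 for the step differences. Stage 5 against 4 in the third joint gave 258 without both arrays that stand apart, and the last against the second joint at stage 2 gave 164 without dim probe sets.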
